A study of Mus musculus with 90 samples.

Results

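Livers without the glucocorticoid receptor (GR) in hepatocytes were compared with WT livers in mice on the control diet at zeitgeber time 12 (ZT12), the hour of lights off when food was given. The libraries were taken by their labels: the 4 GR LKO and the 4 WT livers of the night-restricted feeding group at ZT12, 8 of the 90 libraries of the series. GR LKO mice were GRfl/fl x Alb-Cre, with *loxP* sites in both copies of the receptor gene *Nr3c1* and Cre recombinase under the albumin promoter, which is active in hepatocytes. Other cells of the liver keep the gene. WT mice were GRfl/fl, so that they carried the same floxed gene without Cre. All were adult C57BL/6J males on chow, with free access to food until the last week, when they ate only in the dark phase. Each library held polyadenylated RNA from the whole liver of 1 mouse. The same genotypes at ZT0, ZT4, ZT8, ZT16 and ZT20 on the control diet (34 livers with 3 or 4 in a group), and under caloric restriction at ZT12 (3 livers in each group), were used only to place the ZT12 differences. The question was which liver transcripts depend on hepatocyte GR when glucocorticoids reach their daily peak without a shortage of calories.

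GR is a nuclear receptor that rests in the cytoplasm bound to chaperones and enters the nucleus when it binds glucocorticoid hormone, corticosterone in the mouse. On DNA it binds palindromic response elements as a dimer, or meets other transcription factors at shared enhancers, and it raises some genes and lowers others. In the liver it is known for raising enzymes of gluconeogenesis and amino acid breakdown, for acting on clock genes and acute phase proteins, and for working with STAT5, the factor downstream of growth hormone that sets sex-biased expression.

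The 4 WT libraries held 11408194, 14544579, 13143014 and 13125250 estimated counts (replicates 1 to 4, the order used for every list of values below), and the 4 GR LKO libraries held 15265870, 16066590, 12974408 and 14879184. A gene is named as called where its adjusted p by edgeR, described below, is under 0.05. Levels are given in CPM, counts scaled to the library size and edgeR's TMM factors. These factors correct for a few abundant genes taking a larger share of some libraries. They were 0.963, 0.933, 0.990 and 0.988 in the WT livers and 1.04, 1.06, 1.00 and 1.03 in the GR LKO livers, so they stood apart by genotype. Between 18.7% and 19.9% of each WT library and between 18.1% and 18.3% of each GR LKO library came from its 10 most abundant genes. The first principal component of log2 CPM held 25.2% of the variance and put the WT livers between -26.9 and -19.5 and the GR LKO livers between 19.6 and 31.2. Each library correlated with the mean of the other replicates of its group at r between 0.971 and 0.978 across genes, and no library stood apart in depth or on that component. On the second component (15.4%) WT replicate 1 was at 32.5 and GR LKO replicate 3 at 29.95, while the other libraries lay between -20.5 and 0.273.

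Hepatocyte markers dominated all 8 libraries, as in whole liver: the summed level of the 6 markers in the table was 86810.0, 101300.0, 83930.0 and 94640.0 CPM in the WT livers and 77220.0, 68230.0, 79320.0 and 89930.0 CPM in the GR LKO livers. The groups overlapped, and none of the 6 was at 0. *Alb* (albumin) was the most abundant, at 60756 ± 7549.8 CPM (SD, n = 4) in WT and 52110.2 ± 7597 CPM (SD, n = 4) in GR LKO livers. Of the 6, *Apoa1* and *Hnf4a* were called lower, as described further on. Summed markers of cholangiocytes, endothelial cells, Kupffer cells, stellate cells, lymphocytes, neutrophils, erythrocytes and exocrine pancreas overlapped between the groups. Adipocyte markers did not: their sum was 3551, 2461, 2858 and 2144 CPM in the WT livers and 3856, 3744, 6004 and 4545 CPM in the GR LKO livers. Nearly all of that sum was *Car3*, which hepatocytes also express, at 2747 ± 606 CPM (SD, n = 4) in WT and 4507 ± 1004 CPM (SD, n = 4) in GR LKO livers. *Plin1*, *Lep* and *Retn*, also in the list, were at 0. Of the 8 adipocyte markers 4 were tested, and all 4 were higher in the GR LKO livers (median log2 fold change 1.59). By edgeR 3 had an unadjusted p under 0.05 and 1, *Cfd*, was called, against 2 called by DESeq2. *Cfd*, near 0 in WT, was tested because of its counts in the GR LKO livers, so the share and the median depend on the filter. *Car3* was not called by edgeR (adjusted p = 0.107) and was by DESeq2 (adjusted p = 0.00583). In whole liver, fewer cells of a type and less RNA per cell cannot be told apart, and the part of cell mixture in the results was not tested.

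*Nr3c1*, the gene that was targeted, was at 80.9, 86.3, 73.3 and 86.0 CPM in the WT livers and 18.2, 20.1, 19.7 and 24.5 CPM in the GR LKO livers. Every GR LKO liver was far below every WT liver, and the remaining signal was close to equal in the 4 knockouts (log2 fold change -1.98, SE 0.10, edgeR adjusted p = 5.05e-05). The table does not say which exons the remaining counts come from or which cells they come from. Genes were tested with quasi-likelihood F tests in edgeR, adjusted over all tested genes by the Benjamini-Hochberg method, the source of every edgeR adjusted p below. At an adjusted p of 0.05, 238 of 11428 genes (2.08%) passed, and "called" means this. Of these, 93 (0.814% of the tested genes) were higher in the GR LKO livers and 145 (1.27%) were lower. The unadjusted p was under 0.05 for 1444 genes. For all 238 called genes the 4 values of one genotype lay clear of the 4 of the other, which held for 958 tested genes in all (8.38%).

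Most called changes were moderate. The median log2 fold change was 1.03 among the genes called higher and -0.88 among those called lower, against 0.0037 over all genes tested, and 107 called genes changed by at least 1 on the log2 scale (49 higher, 58 lower). The direction of the split rests on the scaling: with TMM 39.1% of the called genes were higher, while with library size alone 288 genes were called and 186 of them (64.6%) were higher against 102 lower, with the median of all genes at 0.097. With a single library left out, 137 genes were called without WT replicate 2, 141 without WT replicate 3 and 144 without GR LKO replicate 1. The count called higher was 52, 53 and 54 without these and 59 without GR LKO replicate 4, and the count called lower was 85, 88 and 90 without these and 94 without GR LKO replicate 2. DESeq2 called 564 genes, among them all 238. DESeq2 counts given for lists can include members that edgeR's filter left untested.

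**Figure D1:**
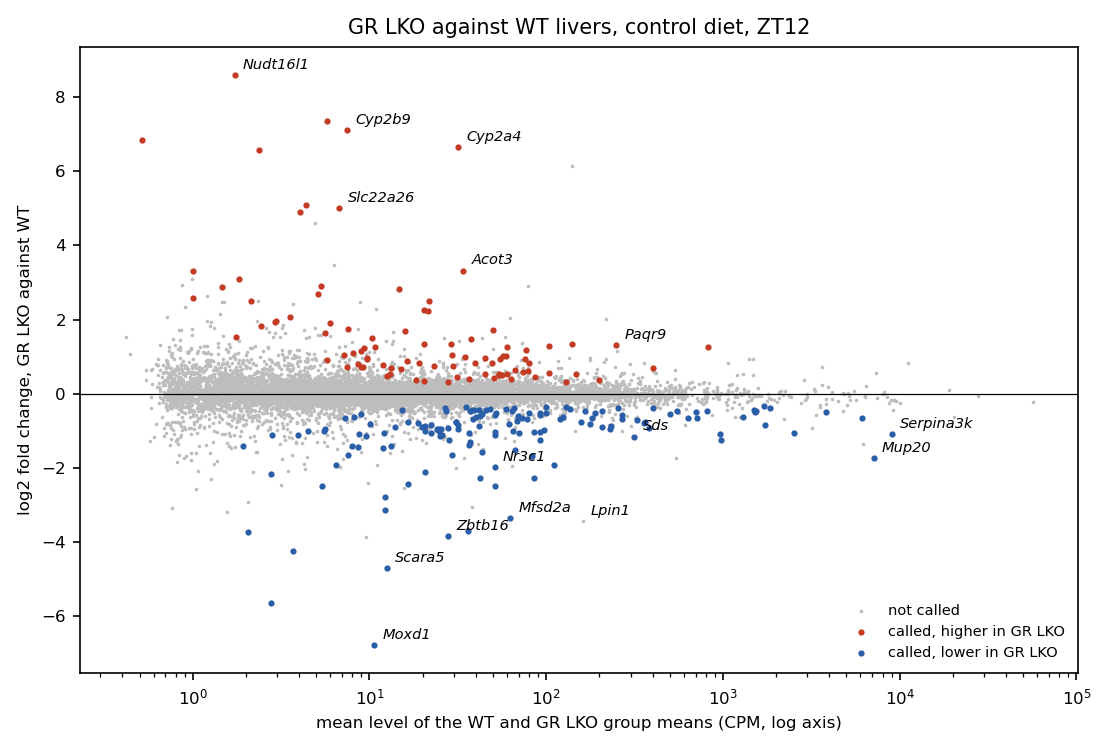
Each point is 1 of the 11428 tested genes: the horizontal axis is the mean of the WT and GR LKO group means in CPM on a log axis, and the vertical axis is the log2 fold change of GR LKO against WT livers. Red points are the 93 genes called higher and blue points the 145 called lower, with *Nr3c1* at -1.98.

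Part of the genes that dimeric GR is best known to raise were called lower without the receptor. Of 37 classical targets in the list used here 34 were tested and 14 (41.2%) were called, all of them lower, with a median log2 fold change of -0.99 over the 34. This list and the others below were chosen with earlier results of these data known, so their shares are no test of a class of genes. Over all tested genes 2.08% were called, the share to set beside each list. Among the highest-ranked of all genes was *Zbtb16*, which encodes the zinc finger repressor PLZF. It was at 39.4, 54.2, 64.6 and 49.7 CPM in the WT livers and 3.66, 4.71, 2.35 and 3.44 CPM in the GR LKO livers (log2 fold change -3.86, SE 0.21, edgeR adjusted p = 5.05e-05). Every WT liver was far above every GR LKO liver. *Fkbp5*, a co-chaperone that holds GR in its inactive complex and is itself induced by it, was at 61.4, 63.6, 49.7 and 107 CPM in the WT livers and 16.4, 16.2, 14.7 and 10.2 CPM in the GR LKO livers (log2 fold change -2.29, SE 0.25, edgeR adjusted p = 0.00224). WT replicate 4 was the highest, and the GR LKO livers lay close together. *Tsc22d3*, which encodes the anti-inflammatory protein GILZ, was at 144, 105, 72.2 and 73.0 CPM in the WT livers and 40.5, 28.9, 30.8 and 37.7 CPM in the GR LKO livers (log2 fold change -1.51, SE 0.23, edgeR adjusted p = 0.0115).

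*Errfi1*, an inhibitor of the EGF receptor, was a highly expressed target at 1307 ± 139.8 CPM (SD, n = 4) in WT and 615 ± 87.3 CPM (SD, n = 4) in GR LKO livers (log2 fold change -1.09, SE 0.12, edgeR adjusted p = 0.00208). The Kruppel-like factors *Klf9* and *Klf15*, both raised by glucocorticoids in many tissues, were lower by less, with log2 fold changes of -0.52 and -0.52. The call of *Klf9* was lost without WT replicates 2 and 3 or GR LKO replicates 1, 2, 3 and 4 (adjusted p up to 0.0692) and with library size alone (edgeR adjusted p = 0.0645). The call of *Klf15* was lost without WT replicates 2 and 4 or GR LKO replicates 2, 3 and 4 (adjusted p up to 0.0821). The arrestin-related gene *Arrdc2* fell by 1.65 on the log2 scale, with its call lost without WT replicates 1 and 2 or GR LKO replicates 1, 2 and 4 (adjusted p up to 0.0826). *Map3k6*, a kinase gene, passed in none of the 8 fits that each left out 1 library (log2 fold change -1.43, edgeR adjusted p = 0.0447, up to 0.131). With library size alone *Map3k6* was not called either (edgeR adjusted p = 0.0622). With library size alone 9 of the 34 were called, and with DESeq2 22.

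Several classical targets were low in the GR LKO livers without passing the test. *Lpin1*, which encodes a phosphatidate phosphatase and coactivator, was at 167, 262, 312 and 439 CPM in the WT livers and 18.0, 3.29, 10.1 and 76.5 CPM in the GR LKO livers. The groups did not overlap, but the GR LKO livers spread widely (log2 fold change -3.45, SE 0.82, edgeR adjusted p = 0.075; DESeq2 adjusted p = 0.00479). *Igfbp1*, which encodes an IGF binding protein, was at 19.4, 9.72, 5.70 and 31.7 CPM in the WT livers and 5.62, 0.871, 2.39 and 3.46 CPM in the GR LKO livers (log2 fold change -2.42, SE 0.62, edgeR adjusted p = 0.0938; DESeq2 adjusted p = 0.00114). *Angptl4*, an inhibitor of lipoprotein lipase, had a log2 fold change of -1.21 (SE 0.27, edgeR adjusted p = 0.0639; DESeq2 adjusted p = 0.00037).

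Among the 22 tested genes of the receptor itself, its chaperones and steroid metabolism, 3 were called: *Nr3c1* and *Fkbp5* lower and *Serpina6* higher (median log2 fold change -0.079). *Serpina6* encodes corticosteroid-binding globulin, the carrier of corticosterone in blood, and was at 345, 279, 313 and 292 CPM in the WT livers and 508, 510.03, 553 and 400.2 CPM in the GR LKO livers (log2 fold change 0.68, SE 0.11, edgeR adjusted p = 0.0157). All GR LKO livers lay above all WT livers, and the call was lost without WT replicates 2 and 3 or GR LKO replicate 1 (adjusted p up to 0.0605). *Hsd11b1*, whose enzyme regenerates active hormone, had a log2 fold change of -0.36 (edgeR adjusted p = 0.121). *Nr3c2*, the mineralocorticoid receptor that binds the same hormone, was at 13.99, 12.3, 12.7 and 13.2 CPM in the WT livers and 24.9, 18.7, 16.1 and 14.4 CPM in the GR LKO livers (edgeR adjusted p = 0.196). Neither was called by edgeR, though the groups did not overlap, and DESeq2 called *Hsd11b1* (adjusted p = 0.0136) but not *Nr3c2* (0.141).

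**Figure D2:**
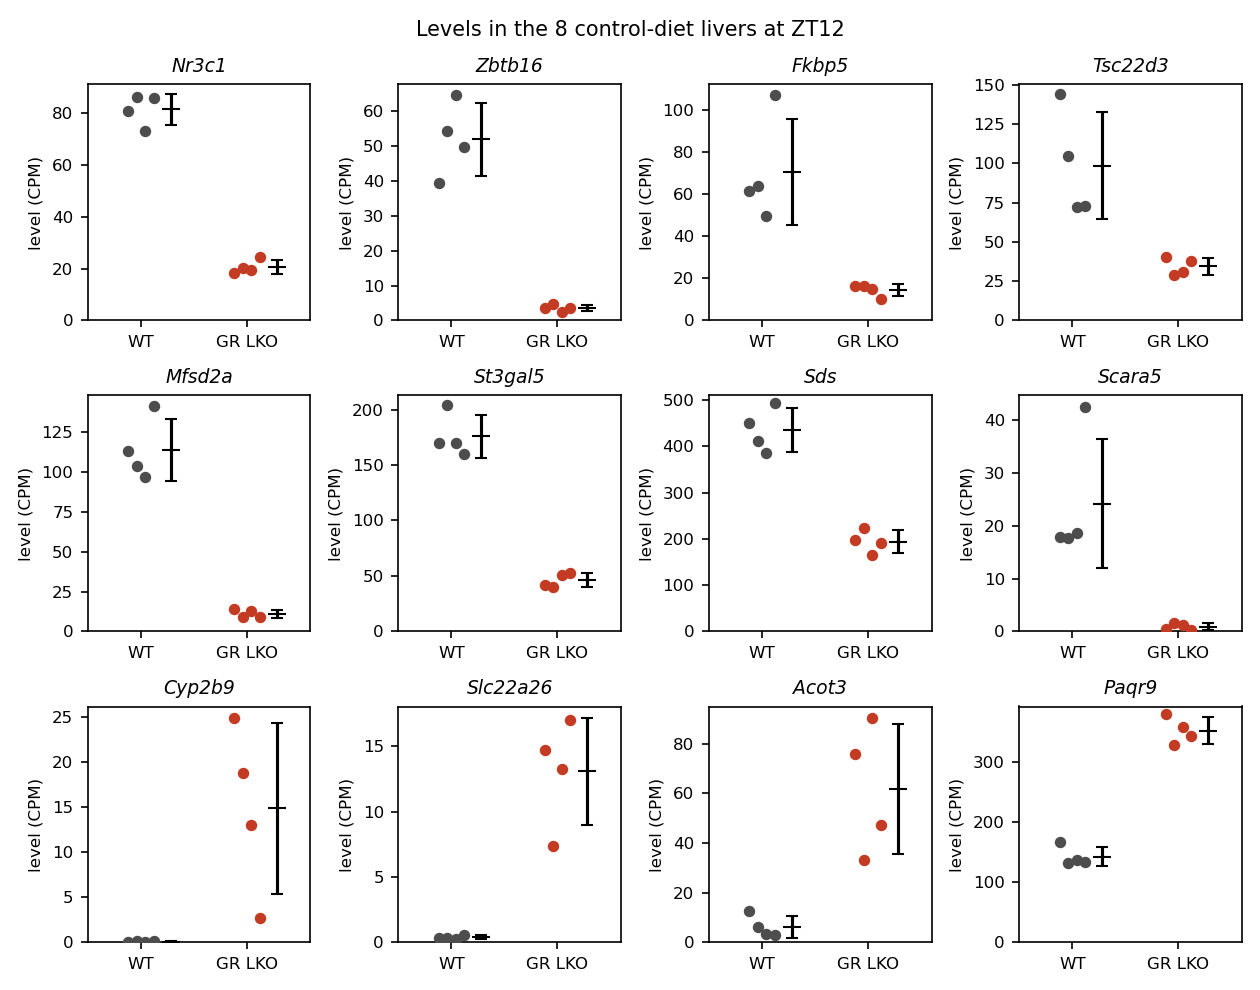
Levels in CPM of 12 genes, 1 panel a gene with its own axis from 0. Grey points are the 4 WT livers, red points the 4 GR LKO livers, and the bars beside them the mean ± SD. The first 8 genes were called lower and the last 4, *Cyp2b9*, *Slc22a26*, *Acot3* and *Paqr9* with log2 fold changes of 7.11, 5.01, 3.32 and 1.30, were called higher.

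Some of the most uniform falls were in genes outside the classical list. *Mfsd2a* encodes a transporter of lysophosphatidylcholine that is induced by fasting. It was at 113, 104, 97.1 and 141 CPM in the WT livers and 13.8, 8.92, 12.8 and 9.05 CPM in the GR LKO livers (log2 fold change -3.36, SE 0.18, edgeR adjusted p = 5.05e-05). *St3gal5*, the sialyltransferase that makes the ganglioside GM3, was at 169.5, 204, 169.9 and 159.9 CPM in the WT livers and 42.01, 40.4, 50.6 and 52.2 CPM in the GR LKO livers (log2 fold change -1.93, SE 0.11, edgeR adjusted p = 7.8e-05). *Cdip1*, a regulator of p53-dependent cell death, was at 126, 127, 125 and 139 CPM in the WT livers and 56.8, 51.0, 57.6 and 53.4 CPM in the GR LKO livers (log2 fold change -1.24, SE 0.068, edgeR adjusted p = 5.05e-05). In these genes the spread within a genotype was small beside the gap between genotypes. *Fbxo31* (a subunit of a ubiquitin ligase), *Nucks1* (a chromatin protein) and *Fam234b* fell with log2 fold changes of -1.13, -0.75 and -0.97, each with an SE under 0.1 and each called in all 8 fits that left out 1 library.

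Other large falls were in genes of low or moderate level. *Apoa4*, which encodes an apolipoprotein of chylomicrons, was at 122, 179, 157 and 105 CPM in the WT livers and 25.5, 29.9, 38.6 and 22.7 CPM in the GR LKO livers (log2 fold change -2.27, SE 0.21, edgeR adjusted p = 0.00122). *Eif4ebp3*, an inhibitor of cap-dependent translation, was at 48.2, 45.6, 46.7 and 129 CPM in the WT livers and 5.86, 5.37, 4.41 and 4.81 CPM in the GR LKO livers, and WT replicate 4 stood far above the other WT livers (log2 fold change -3.72, SE 0.38, edgeR adjusted p = 0.00169). *Il1r1*, the receptor of interleukin-1, was at 46.4, 90.1, 80.0 and 132 CPM in the WT livers and 14.7, 20.2, 13 and 13.4 CPM in the GR LKO livers (log2 fold change -2.51, SE 0.30, edgeR adjusted p = 0.00311). *Capn8*, which encodes a calpain protease, and *Tcim* had log2 fold changes of -4.25 and -2.45, and *Rrm2*, a subunit of ribonucleotide reductase, -2.49. *Rrm2* was the 1 called gene among 27 tested cell cycle genes (3.7%, against 2.08% of all tested genes), whose median was -0.068. The non-coding transcript *E030018B13Rik* was at 7.11, 5.43, 4.46 and 4.74 CPM in the WT livers and 0.189, 0.0588, 0.154 and 0 CPM in the GR LKO livers (log2 fold change -5.66, SE 0.48, edgeR adjusted p = 0.000758).

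Female-biased liver genes are low in male liver, where pulsed growth hormone acting through STAT5 holds them down. Of 25 tested members of the list of such genes 11 (44%) were called, all of them higher (also 11 with library size alone), and the median log2 fold change was 1.1797. Another 19 of the 44 members in the table had too few counts to be tested. Members near 0 in WT were tested because of their counts in the GR LKO livers, so the share and the median depend on which members passed the filter. They also depend on a choice of members made with earlier results known. *Slc22a26*, an organic anion transporter, was at 0.365, 0.369, 0.231 and 0.581 CPM in the WT livers and 14.8, 7.35, 13.3 and 17.0 CPM in the GR LKO livers (log2 fold change 5.01, SE 0.36, edgeR adjusted p = 0.000276). Its neighbour on chromosome 19, *Slc22a27*, was at 0.458, 0.369, 0.374 and 0.309 CPM in the WT livers and 3.56, 2.46, 3.29 and 3.72 CPM in the GR LKO livers (log2 fold change 3.09, SE 0.26, edgeR adjusted p = 0.000715). The lowest GR LKO liver was above the highest WT liver by a wide margin in both, at low absolute levels in WT.

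Cytochrome P450 genes that lie close together on chromosome 7 were also called higher. *Cyp2b9*, a steroid and drug hydroxylase, was at 0, 0.148, 0.0769 and 0.154 CPM in the WT livers and 25.0, 18.8, 13.04 and 2.68 CPM in the GR LKO livers (log2 fold change 7.11, SE 0.90, edgeR adjusted p = 0.00413). *Cyp2a4*, a testosterone hydroxylase, was at 0.362, 0.681, 0.403 and 1.04 CPM in the WT livers and 50.5, 72.5, 120.1 and 9.01 CPM in the GR LKO livers (log2 fold change 6.66, SE 0.87, edgeR adjusted p = 0.00496). *Cyp2b10*, a target of the xenobiotic receptor CAR, was at 1.00, 1.37, 1.38 and 1.70 CPM in the WT livers and 10.3, 11.1, 9.85 and 4.24 CPM in the GR LKO livers (log2 fold change 2.68, SE 0.33, edgeR adjusted p = 0.00344). In all 3 genes GR LKO replicate 4 was the lowest of the knockouts, and still above every WT liver. These 3 were the called genes among 6 tested of the Cyp2a and Cyp2b family (median 2.41), where DESeq2 called 6. Another 3 of the 9 members in the table had too few counts to be tested. *Cyp2b9* and *Cyp2a4*, near 0 in WT, were tested because of their counts in the GR LKO livers, so the share and the median depend on the filter. *Cyp2a5*, expressed in both sexes, was at 1818, 1435, 1239 and 1496 CPM in the WT livers and 2036, 1797, 1203 and 1583 CPM in the GR LKO livers (log2 fold change 0.14, edgeR adjusted p = 0.819). Genes of this family, like those of the Slc22a, Acot, Gstp, Mup and Serpina families, have relatives of similar sequence. Whether the counting split reads among relatives was not tested, so their single values are uncertain.

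Further female-biased genes called higher included peroxisomal genes. *Abcd2*, which encodes a peroxisomal fatty acid transporter, was at 4.22, 5.17, 3.76 and 13.1 CPM in the WT livers and 42.01, 28.2, 44.8 and 33.3 CPM in the GR LKO livers (log2 fold change 2.49, SE 0.37, edgeR adjusted p = 0.0101). *Acot3*, which encodes a peroxisomal acyl-CoA thioesterase, was at 12.5, 6.21, 3.33 and 3.01 CPM in the WT livers and 76.0, 33.1, 90.5 and 47.3 CPM in the GR LKO livers (log2 fold change 3.32, SE 0.48, edgeR adjusted p = 0.00984). *Prlr* (the prolactin receptor), *Acot4*, *Rtn4* and *Fmo2* had log2 fold changes of 1.1797, 1.29, 0.96 and 0.69. The call of *Prlr* was lost without WT replicates 1 and 2 or GR LKO replicates 1, 3 and 4 (adjusted p up to 0.0933) and that of *Acot4* without WT replicates 2, 3 and 4 or GR LKO replicates 1 and 3 (adjusted p up to 0.0824). *Rtn4* lost its call without WT replicates 1 and 2 or GR LKO replicates 1, 2, 3 and 4 (adjusted p up to 0.112) and *Fmo2* without WT replicates 2 and 3 (adjusted p up to 0.0622). In the fit of all control-diet libraries *Fmo2* was not called (edgeR adjusted p = 0.506). *Cyp2c38* was the 1 called gene among 13 tested of the Cyp2c family, at 16.4 ± 2.93 CPM (SD, n = 4) in WT and 41.1 ± 7.37 CPM (SD, n = 4) in GR LKO livers (log2 fold change 1.33, SE 0.16, edgeR adjusted p = 0.00313).

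Male-biased genes were mixed. Of 46 tested members of the list of genes that growth hormone pulses maintain in male liver 9 (19.6%) were called, 8 lower and 1 higher, with a median log2 fold change of -0.18. DESeq2 called 19 and library size alone 8. *Moxd1*, which encodes a monooxygenase related to dopamine beta-hydroxylase, was at 33.7, 30.0, 11.5 and 8.66 CPM in the WT livers and 0.126, 0.176, 0.462 and 0 CPM in the GR LKO livers (log2 fold change -6.79, SE 0.72, edgeR adjusted p = 0.00197). *Scara5*, a ferritin receptor, was at 17.9, 17.7, 18.5 and 42.5 CPM in the WT livers and 0.505, 1.65, 1.17 and 0.326 CPM in the GR LKO livers (log2 fold change -4.71, SE 0.48, edgeR adjusted p = 0.00169), with WT replicate 4 above the other WT livers. *Obp2a*, which encodes an odorant binding protein, was at 4.73, 5.57, 3.56 and 1.54 CPM in the WT livers and 0.126, 0.410, 0.385 and 0.196 CPM in the GR LKO livers (log2 fold change -3.75, SE 0.50, edgeR adjusted p = 0.00586). The GR LKO livers were near 0 in all 3. These 3 genes were tested because of their counts in the WT livers, so the share and the median of the list depend on the filter.

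*Mup20*, which encodes the urinary protein darcin, was at 11623, 12228, 12359 and 7569 CPM in the WT livers and 2703, 4452, 2655 and 3343 CPM in the GR LKO livers (log2 fold change -1.73, SE 0.21, edgeR adjusted p = 0.00344). *C6*, the complement component, fell by 0.95 (SE 0.11, edgeR adjusted p = 0.00294). *Gstp2* and *Gstp1*, glutathione S-transferases adjacent on chromosome 19, had log2 fold changes of -3.14 and -1.06. The call of *Gstp1* was lost without WT replicates 1, 2, 3 and 4 or GR LKO replicates 1, 3 and 4 (adjusted p up to 0.13) and with library size alone (edgeR adjusted p = 0.0645). Against the others, *Mup18* was higher at 578, 659, 318 and 399.998 CPM in the WT livers and 1270.1, 879.6, 1052 and 1446 CPM in the GR LKO livers (log2 fold change 1.25, SE 0.24, edgeR adjusted p = 0.0343), with its call lost without WT replicates 1, 3 and 4 or GR LKO replicates 1, 3 and 4 (adjusted p up to 0.0947). These Mup genes were the 2 called of 21 tested in the family (median 0.11), where DESeq2 called 7. *Cyp7b1*, a male-biased oxysterol hydroxylase, was lower in every GR LKO liver but missed the threshold (log2 fold change -0.86, edgeR adjusted p = 0.0647; DESeq2 adjusted p = 0.000534).

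The growth hormone axis itself gave no call. By edgeR 0 of its 23 tested members were called, 3 had an unadjusted p under 0.05, and DESeq2 called 2 (median log2 fold change 0.072). The growth hormone receptor gene *Ghr* was at 629.8 ± 24.1 CPM (SD, n = 4) in WT and 687 ± 42.6 CPM (SD, n = 4) in GR LKO livers (edgeR adjusted p = 0.54), and *Igf1*, the main hormone made under its control, at 599.6 ± 86.7 CPM (SD, n = 4) and 577 ± 32.6 CPM (SD, n = 4) (edgeR adjusted p = 0.9). *Bcl6*, a repressor with targets in common with STAT5, was at 105, 37.4, 54.6 and 20.4 CPM in the WT livers and 17.4, 17.5, 28.6 and 21.8 CPM in the GR LKO livers, where WT replicate 1 was high and the groups overlapped (edgeR adjusted p = 0.201).

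**Figure D3:**
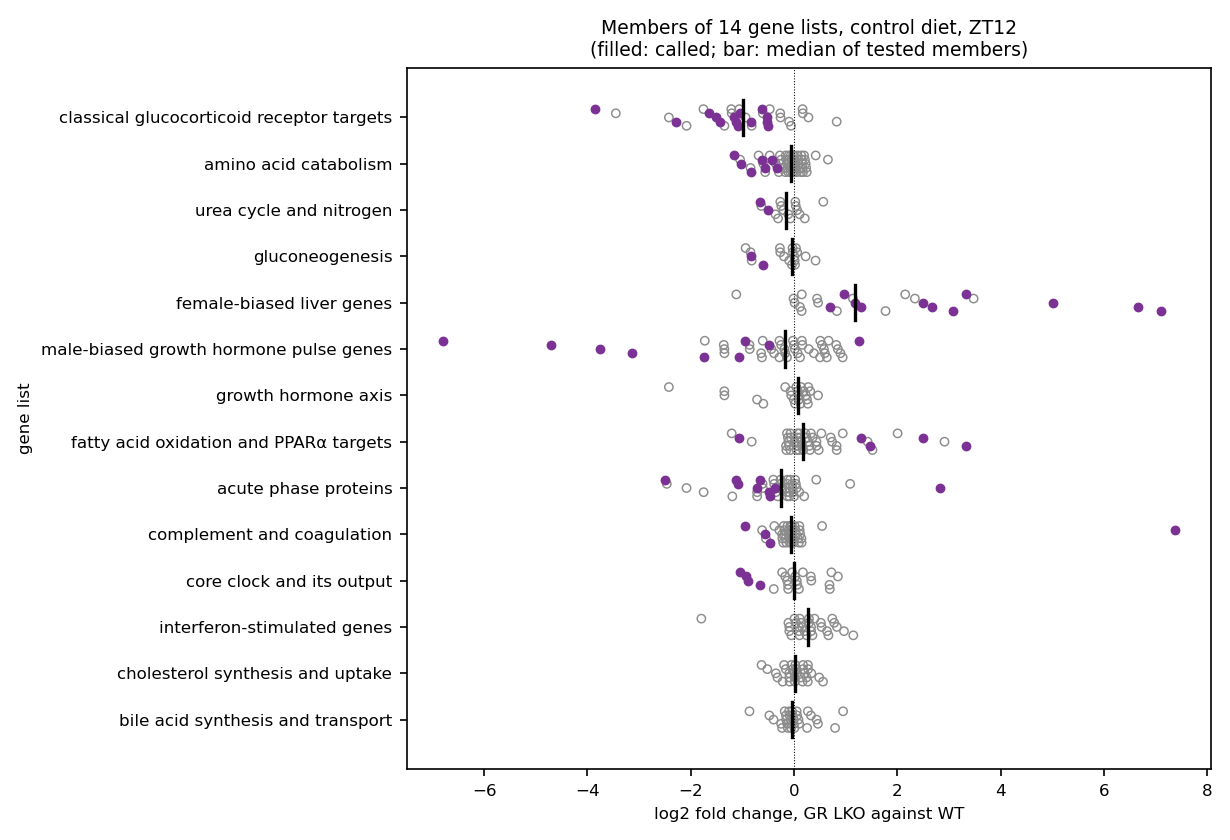
Log2 fold change of GR LKO against WT livers (horizontal axis) for the tested members of 14 gene lists, 1 line a list. Filled points are called genes, open points are not called, and the black bar is the list's median, -0.99 for classical targets and 1.1797 for female-biased genes.

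Enzymes of amino acid breakdown were called lower where they were called at all: 7 of 62 tested (11.3%), with a median of -0.058 over the list. *Sds*, serine dehydratase, was at 449, 412, 385 and 493 CPM in the WT livers and 197, 224, 165 and 191 CPM in the GR LKO livers (log2 fold change -1.16, SE 0.11, edgeR adjusted p = 0.00133). *Tdo2*, which opens the tryptophan ring, was at 1456, 1684, 1644 and 1549.6 CPM in the WT livers and 1082, 1059.7, 939 and 1013 CPM in the GR LKO livers (log2 fold change -0.63, SE 0.077, edgeR adjusted p = 0.00349). In both genes the genotypes were well apart. *Tat*, tyrosine aminotransferase and the textbook glucocorticoid-induced enzyme, was at 2515, 2289, 1986 and 2095 CPM in the WT livers and 1529.7, 838, 1199 and 1399 CPM in the GR LKO livers (log2 fold change -0.84, SE 0.17, edgeR adjusted p = 0.044).

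The call of *Tat* was lost without WT replicates 1, 2, 3 and 4 or GR LKO replicates 3 and 4 (adjusted p up to 0.115) and with library size alone (edgeR adjusted p = 0.0529). *Gldc*, of the glycine cleavage system, fell by 1.02 with its call lost without WT replicates 1 and 3 or GR LKO replicates 1, 2, 3 and 4 (adjusted p up to 0.0707). *Aadat* and *Gnmt*, which act on kynurenine and glycine, had smaller log2 fold changes of -0.57 and -0.32. Their calls held in 2 and 1 of the 8 fits that left out 1 library. The call of *Aadat* was lost without WT replicates 1, 2 and 3 or GR LKO replicates 1, 2 and 4 (adjusted p up to 0.091). *Gnmt* lost its call without WT replicates 1, 2 and 3 or GR LKO replicates 1, 2, 3 and 4 (adjusted p up to 0.0864) and with library size alone (edgeR adjusted p = 0.1). With library size alone 4 of the 62 were called. The urea cycle list had 2 called of 16 tested by edgeR and 4 by DESeq2 (median -0.16): *Asl*, argininosuccinate lyase, and *Cps1*, the entry enzyme, with log2 fold changes of -0.66 and -0.50. The call of *Asl* was lost without WT replicates 1, 2, 3 and 4 or GR LKO replicates 1, 2 and 4 (adjusted p up to 0.113) and that of *Cps1* without WT replicates 1, 2, 3 and 4 or GR LKO replicates 1, 2 and 3 (adjusted p up to 0.111) and with library size alone (edgeR adjusted p = 0.0754). Among 22 tested amino acid transporters (median -0.043; 3 called by DESeq2) the 1 called gene was *Slc3a1*, the heavy chain of a cystine and dibasic amino acid transporter, at 30.9, 45.8, 31.5 and 25.6 CPM in the WT livers and 4.54, 9.38, 5.71 and 11.3 CPM in the GR LKO livers (log2 fold change -2.11, SE 0.29, edgeR adjusted p = 0.00685).

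Of 19 tested gluconeogenic genes 2 were called by edgeR, both lower, and 4 by DESeq2 (median -0.042). *Slc37a4*, which carries glucose 6-phosphate into the endoplasmic reticulum, was at 227, 229, 201 and 244 CPM in the WT livers and 122, 124, 118 and 144 CPM in the GR LKO livers (log2 fold change -0.83, SE 0.088, edgeR adjusted p = 0.00198). *Foxo1*, a transcription factor of fasting, was at 54.2, 50.5, 48.5 and 49.2 CPM in the WT livers and 36.5, 32.0, 28.2 and 37.0 CPM in the GR LKO livers (log2 fold change -0.59, SE 0.096, edgeR adjusted p = 0.0154), with its call lost without GR LKO replicate 2 (adjusted p up to 0.0522). *Pck1*, the cytosolic phosphoenolpyruvate carboxykinase, was at 4080.2, 4188, 4314 and 4292 CPM in the WT livers and 3343, 1835, 2016 and 1609.5 CPM in the GR LKO livers. Among its GR LKO livers replicate 1 lay nearest the WT range (log2 fold change -0.94, SE 0.20, edgeR adjusted p = 0.0557; DESeq2 adjusted p = 0.000178). *G6pc*, glucose 6-phosphatase, was at 346, 229, 166 and 301 CPM in the WT livers and 327, 193, 199.6 and 146 CPM in the GR LKO livers, with overlapping groups (edgeR adjusted p = 0.788). The glycolysis list had 1 called of 20 tested by edgeR and 3 by DESeq2 (median -0.21): *Pfkfb3*, which makes the activator of phosphofructokinase, was at 20.7, 45.6, 46.4 and 65.6 CPM in the WT livers and 13.3, 16.3, 12.97 and 14.3 CPM in the GR LKO livers (log2 fold change -1.65, SE 0.29, edgeR adjusted p = 0.0234), with its call lost without WT replicates 2 and 3 or GR LKO replicates 1, 2, 3 and 4 (adjusted p up to 0.0792). By edgeR 0 of 17 tested glycogen genes were called, with 3 at an unadjusted p under 0.05 and 0 by DESeq2 (median 0.054).

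Lipid genes moved both ways. The list of fatty acid oxidation, ketogenesis and targets of PPARalpha, the receptor for fatty acids, had 5 called of 49 tested (10.2%), 4 higher and 1 lower, with a median of 0.18. DESeq2 called 13 and library size alone 8. Beside *Acot3*, *Acot4* and *Abcd2*, given above, *Vnn1*, which encodes a pantetheinase, was at 26.4, 26.0, 14.8 and 12.2 CPM in the WT livers and 71.3, 50.6, 49.0 and 48.8 CPM in the GR LKO livers (log2 fold change 1.47, SE 0.26, edgeR adjusted p = 0.0233), with its call lost without WT replicate 3 or GR LKO replicates 1 and 2 (adjusted p up to 0.0692). *Plin5*, which coats lipid droplets and ties them to mitochondria, was the called gene that fell, at 43.8, 59.2, 54.2 and 40.3 CPM in the WT livers and 24.7, 29.2, 18.6 and 21.7 CPM in the GR LKO livers (log2 fold change -1.07, SE 0.16, edgeR adjusted p = 0.0121). The Cyp4a omega-hydroxylases *Cyp4a14* and *Cyp4a10* were not called by edgeR, though the groups did not overlap. The relative spread was wider in the WT livers. *Cyp4a14* was at 48.5, 12.8, 2.77 and 11 CPM in the WT livers and 156, 158, 169 and 76.4 CPM in the GR LKO livers (edgeR adjusted p = 0.073; DESeq2 adjusted p = 0.0127). *Cyp4a10* was at 166, 82.5, 24.4 and 74.8 CPM in the WT livers and 433, 315, 445 and 200.5 CPM in the GR LKO livers (edgeR adjusted p = 0.0857; DESeq2 adjusted p = 0.00865). For both genes WT replicate 1 was the highest of its group and GR LKO replicate 4 the lowest. The Cyp4a family had 0 called of 6 tested by edgeR, 3 at an unadjusted p under 0.05 and 3 by DESeq2 (median 0.68).

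In the list of lipid droplet and adipogenic genes 3 of 19 tested were called by edgeR and 5 by DESeq2 (median 0.37): *Plin5* lower, and *Pparg* and *Cfd* higher. *Pparg*, the adipogenic nuclear receptor, was at 8.96, 8.26, 3.11 and 9.76 CPM in the WT livers and 19.7, 22.7, 35.6 and 18.7 CPM in the GR LKO livers (log2 fold change 1.69, SE 0.33, edgeR adjusted p = 0.0368), with its call lost without WT replicates 1, 2 and 4 or GR LKO replicates 1, 2, 3 and 4 (adjusted p up to 0.0995). *Cfd*, which encodes the protease adipsin, was at 0.273, 0, 0 and 0 CPM in the WT livers and 2.46, 2.83, 34.0 and 6.62 CPM in the GR LKO livers. The WT livers held 3 counts in all, and the ratio of GR LKO to WT was 173 with a 95% counting interval of 59.0 to 842.5, which covers counting error only (edgeR adjusted p = 0.0338). *Cfd* was tested because of its counts in the GR LKO livers, so the share of this list depends on the filter. GR LKO replicate 3 was well above the others, and the call was lost without WT replicates 1, 2, 3 and 4 or GR LKO replicate 4 (adjusted p up to 0.128). Triglyceride synthesis had 2 called of 28 tested by edgeR and 4 by DESeq2 (median 0.13): *Lpin2*, a relative of *Lpin1*, fell by 0.78 (SE 0.10, edgeR adjusted p = 0.0044). *Mogat1*, a monoacylglycerol acyltransferase, was higher at 0.273, 0.148, 0.386 and 0.309 CPM in the WT livers and 1.26, 0.868, 3.54 and 1.24 CPM in the GR LKO livers (log2 fold change 2.58, SE 0.54, edgeR adjusted p = 0.0488), with its call lost without WT replicates 1, 2, 3 and 4 or GR LKO replicates 1, 3 and 4 (adjusted p up to 0.142). *Mogat1*, near 0 in WT, was tested because of its counts in the GR LKO livers, so the share of this list depends on the filter. Cholesterol synthesis and uptake had 0 called of 30 tested by edgeR, 2 at an unadjusted p under 0.05 and 2 by DESeq2 (median 0.018), and bile acid genes 0 of 31, with 5 and 2 (median -0.040).

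Most called genes of the acute phase list were lower. Of 43 tested 9 (20.9%) were called, 8 lower and 1 higher, with a median of -0.26. With library size alone 5 were called and with DESeq2 16. *Serpina3k*, an abundant protease inhibitor, was at 10987, 12537, 11466 and 14149 CPM in the WT livers and 5620.03, 5171, 5732 and 6576 CPM in the GR LKO livers (log2 fold change -1.09, SE 0.11, edgeR adjusted p = 0.00146). All GR LKO livers were below all WT livers. *Saa4*, the constitutive serum amyloid A gene, was at 397, 450.1, 433 and 336 CPM in the WT livers and 216, 237, 262 and 267 CPM in the GR LKO livers (log2 fold change -0.72, SE 0.11, edgeR adjusted p = 0.0114). *Cp*, which encodes ceruloplasmin, was at 817 ± 73.7 CPM (SD, n = 4) in WT and 583 ± 13.4 CPM (SD, n = 4) in GR LKO livers (log2 fold change -0.49, SE 0.077, edgeR adjusted p = 0.0134), with its call lost without WT replicate 3 (adjusted p up to 0.05).

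*Serpina3n*, a protease inhibitor gene, was at 282, 287, 306 and 283 CPM in the WT livers and 214, 242, 217 and 219 CPM in the GR LKO livers (log2 fold change -0.38, SE 0.067, edgeR adjusted p = 0.0236). Its call was lost without WT replicates 1, 2 and 3 or GR LKO replicates 1, 3 and 4 (adjusted p up to 0.0796) and with library size alone (edgeR adjusted p = 0.0923). *Hp* (haptoglobin), *Lrg1* and *Cebpd* were called lower with log2 fold changes of -0.47, -0.66 and -1.13, and all 3 calls were lost with library size alone (edgeR adjusted p = 0.0538, 0.068 and 0.0595). The call of *Hp* was also lost without WT replicates 2, 3 and 4 or GR LKO replicates 1, 2 and 4 (adjusted p up to 0.0945). *Lrg1* lost its call without WT replicates 2, 3 and 4 or GR LKO replicates 1, 2, 3 and 4 (adjusted p up to 0.111), and *Cebpd* without WT replicates 1, 3 and 4 or GR LKO replicates 1, 2, 3 and 4 (adjusted p up to 0.114). The gene of the list that rose was *Hamp2*, a hepcidin copy, at 6.22, 4.49, 1.06 and 2.91 CPM in the WT livers and 11.9, 14.6, 54.3 and 22.5 CPM in the GR LKO livers (log2 fold change 2.82, SE 0.59, edgeR adjusted p = 0.0481). GR LKO replicate 3 was the highest, and the call was lost in each of the 8 fits that left out 1 library (edgeR adjusted p up to 0.125). Of 42 tested genes of complement and coagulation 4 were called by edgeR and 8 by DESeq2 (median -0.069): *C6*, *Hc* and *C9* of the terminal complex lower, and *Cfd*, of the alternative pathway, higher. *Cfd*, near 0 in WT, was tested because of its counts in the GR LKO livers, so that share depends on the filter. *Hc*, component C5, had a log2 fold change of -0.46 with its call lost without WT replicate 3 or GR LKO replicates 1, 3 and 4 (adjusted p up to 0.0637). *C9* had a log2 fold change of -0.56, with its call lost without WT replicates 2 and 3 or GR LKO replicates 1, 2, 3 and 4 (adjusted p up to 0.0952) and with library size alone (edgeR adjusted p = 0.0565). Interferon-stimulated genes gave 0 called of 30 by edgeR, 5 at an unadjusted p under 0.05 and 2 by DESeq2, with a median of 0.26.

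Of the hepatocyte markers, *Apoa1*, the main protein of HDL, was at 6245, 7692, 7159.97 and 8854 CPM in the WT livers and 4845, 4168, 5128 and 5004 CPM in the GR LKO livers (log2 fold change -0.65, SE 0.12, edgeR adjusted p = 0.0269), with its call lost without WT replicates 2 and 3 or GR LKO replicates 1, 2 and 4 (adjusted p up to 0.0805). *Hnf4a*, the nuclear receptor that maintains hepatocyte identity, was at 568, 695, 679 and 628 CPM in the WT livers and 459, 474, 404 and 509 CPM in the GR LKO livers (log2 fold change -0.48, SE 0.094, edgeR adjusted p = 0.037). Its call was lost without WT replicates 2, 3 and 4 or GR LKO replicates 1, 2 and 3 (adjusted p up to 0.111) and with library size alone (edgeR adjusted p = 0.083). *Hnf4a* and *Pparg* were the 2 called of 25 tested nuclear receptors other than *Nr3c1* (median -0.012), where DESeq2 called 5.

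Of 22 tested genes of the clock and its output 4 (18.2%) were called, all lower, with a median of -0.0090. DESeq2 called 8 and library size alone 5. *Per1*, a period gene with a known GR element, was at 68.7, 62.5, 56.3 and 89.6 CPM in the WT livers and 47.1, 27.7, 30.2 and 29.2 CPM in the GR LKO livers (log2 fold change -1.04, SE 0.20, edgeR adjusted p = 0.0332). GR LKO replicate 1 stood above the other knockouts, and the call was lost without WT replicates 1, 2 and 4 or GR LKO replicates 2, 3 and 4 (adjusted p up to 0.0957). *Ciart*, a repressor of CLOCK and BMAL1, was at 39.5, 29.5, 36.8 and 40.7 CPM in the WT livers and 20.5, 19.5, 17.9 and 19.2 CPM in the GR LKO livers (log2 fold change -0.93, SE 0.11, edgeR adjusted p = 0.00294). *Usp2*, a deubiquitinase under clock control, was at 88.2, 79.9, 87.4 and 99.9 CPM in the WT livers and 61.8, 51.8, 52.1 and 59.6 CPM in the GR LKO livers (log2 fold change -0.66, SE 0.092, edgeR adjusted p = 0.00758). *Noct*, which encodes the rhythmic phosphatase nocturnin, was at 291, 313, 267 and 337 CPM in the WT livers and 209.5, 149, 145 and 151 CPM in the GR LKO livers (log2 fold change -0.88, SE 0.13, edgeR adjusted p = 0.0103). Groups were apart in all 4. *Per2* was at 60.2, 75.3, 60.6 and 63.5 CPM in the WT livers and 60.6, 62.8, 68.1 and 71.8 CPM in the GR LKO livers, with overlap (edgeR adjusted p = 0.967), and *Per3* and *Dbp* had log2 fold changes of 0.33 and 0.69 without a call (edgeR adjusted p = 0.0913 and 0.121; by DESeq2 0.019 and 0.0163).

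Among genes called higher with the smallest p were several with no place in these lists. *Paqr9*, a membrane receptor of the progestin and adipoQ family, was at 167, 133, 137 and 134 CPM in the WT livers and 380.1, 328, 358 and 344 CPM in the GR LKO livers (log2 fold change 1.30, SE 0.091, edgeR adjusted p = 0.000276). *Cldn2*, a claudin of tight junctions, was at 42.7, 35.6, 37.1 and 36.0 CPM in the WT livers and 79.0, 77.8, 75.1 and 74.1 CPM in the GR LKO livers (log2 fold change 1.02, SE 0.074, edgeR adjusted p = 0.000276). *Klhdc7a* was at 37.0, 41.3, 39.5 and 32.2 CPM in the WT livers and 69.8, 74.3, 75.6 and 68.2 CPM in the GR LKO livers (log2 fold change 0.94, SE 0.087, edgeR adjusted p = 0.00122). In these 3 genes every GR LKO liver was well above every WT liver. *Sh3bgrl2*, *Serpina7* (thyroxine-binding globulin), *Inhbe* (the hepatokine activin E subunit) and *Tlr12* (a toll-like receptor) had log2 fold changes of 1.02, 1.73, 1.27 and 1.73, and all were called in each of the 8 fits that left out 1 library. *Inhbe* was the 1 called gene of 21 tested hepatokines and their receptors (median 0.012), where DESeq2 called 5.

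*Vldlr*, the receptor of very low density lipoprotein, was at 1.37, 1.77, 1.23 and 0.618 CPM in the WT livers and 9.97, 14.1, 6.76 and 6.53 CPM in the GR LKO livers (log2 fold change 2.90, SE 0.36, edgeR adjusted p = 0.0036), the 1 called of 17 tested genes of serine synthesis and amino acid stress (median 0.15; 3 called by DESeq2). *Osbpl3*, a lipid transfer protein gene, was at 12.3, 4.26, 4.88 and 7.10 CPM in the WT livers and 29.1, 24.3, 49.4 and 31.8 CPM in the GR LKO livers (log2 fold change 2.25, SE 0.34, edgeR adjusted p = 0.0116). *Gprc5b*, an orphan receptor gene, was at 0.219, 0.148, 0.385 and 0.232 CPM in the WT livers and 2.90, 2.59, 18.8 and 9.53 CPM in the GR LKO livers (log2 fold change 5.09, SE 0.81, edgeR adjusted p = 0.014). GR LKO replicate 3 was the highest for *Osbpl3* and *Gprc5b*, and the call of *Gprc5b* was lost without WT replicate 2 (adjusted p up to 0.0621). *Ppp1r9a*, a scaffold protein gene, had a log2 fold change of 1.92. *Lgals1*, galectin-1, rose by 2.23 with its call lost without WT replicates 2, 3 and 4 or GR LKO replicates 1 and 4 (adjusted p up to 0.0952). *Tcf24* rose by 4.91 with its call lost without WT replicates 1, 3 and 4 or GR LKO replicates 1 and 2 (adjusted p up to 0.0813). *Id2*, an inhibitor of basic helix-loop-helix factors, was at 92.5, 59.4, 97.0 and 70.4 CPM in the WT livers and 198, 227, 189 and 189 CPM in the GR LKO livers (log2 fold change 1.33, SE 0.15, edgeR adjusted p = 0.00301).

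*Id2* and *Zfp36*, which destabilises inflammatory mRNAs, were the 2 called of 16 tested Id and immediate early genes (median -0.14). *Zfp36* had a log2 fold change of -0.96, with its call lost without WT replicates 2 and 3 or GR LKO replicates 1, 2 and 3 (adjusted p up to 0.0876). Iron handling had 4 called of 24 tested (median 0.041), with *Scara5* and *Cp* lower and *Hamp2* and *Hmox1* higher. *Scara5*, near 0 in the GR LKO livers, was tested because of its counts in the WT livers, so that share depends on the filter. *Hmox1*, heme oxygenase 1, was at 7.14, 7.89, 5.48 and 4.601 CPM in the WT livers and 13.4, 9.84, 18.4 and 18.7 CPM in the GR LKO livers (log2 fold change 1.26, SE 0.24, edgeR adjusted p = 0.0335), with its call lost without WT replicates 1, 2, 3 and 4 or GR LKO replicates 1, 3 and 4 (adjusted p up to 0.101). In the list of insulin and FoxO signaling 4 of 33 tested were called, all lower, against 7 by DESeq2 (median -0.033): *Eif4ebp3*, *Mup20*, *Foxo1* and *Klf15*. The list as written holds *Mup20*, the urinary protein gene given above, which was also counted in the Mup family. Single calls fell in drug and stress lists, and over all tested genes 2.08% were called. The shares were 2.38% in xenobiotic metabolism, 16.7% of 6 sulfotransferases, 2.86% in protein folding and 4.55% in metallothioneins and zinc transporters. A single call says little about a list. *Ugt2b1*, a glucuronosyltransferase, was the called gene of 42 tested in xenobiotic metabolism (log2 fold change -0.67, median 0.052; 5 called with library size alone and 9 by DESeq2), and *Sult1d1* of 6 tested sulfotransferases (-0.99, median -0.50; 3 called by DESeq2). *Herpud1* was the called gene among 35 genes of protein folding in the endoplasmic reticulum (-0.94, median -0.00041), and *Slc39a4*, a zinc importer, among 22 metallothioneins and zinc transporters (-0.84, median -0.064). The call of *Slc39a4* was lost without WT replicates 2, 3 and 4 or GR LKO replicates 1, 2 and 4 (adjusted p up to 0.115). *Fmo5*, a flavin monooxygenase, fell by 1.26 (SE 0.20, edgeR adjusted p = 0.0138), with its call lost without GR LKO replicate 1 (adjusted p up to 0.0503).

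Of 11 tested Acot genes 2 were called, both higher (*Acot3* and *Acot4*, median 0.31), of 14 Slc22a genes 2, both higher (*Slc22a26* and *Slc22a27*, median 0.33), and of 19 glutathione S-transferases 2, both lower (*Gstp1* and *Gstp2*, median -0.033). The 2 Slc22a genes, near 0 in WT, were tested because of their counts in the GR LKO livers, so that share depends on the filter. Of 12 tested Kruppel-like factors 2 were called, both lower (*Klf9* and *Klf15*, median -0.36; 4 called by DESeq2), and of 11 Serpina1 and Serpina3 genes 2, both lower (*Serpina3k* and *Serpina3n*, median -0.31). The 4 tested flavin monooxygenases had *Fmo5* called lower and *Fmo2* higher (median 0.30). Among 21 tested heat shock genes the 1 called gene (4.76%, against 2.08% of all tested genes), *Hsph1*, was lower (median -0.035; 2 called by DESeq2). In the fit of all control-diet libraries its call was lost (edgeR adjusted p = 0.355). By edgeR 0 of 4 tested Cyp3a genes were called, with 0 at an unadjusted p under 0.05 and 0 by DESeq2 (median -0.23). Feeding and fasting response genes had 0 called of 18 by edgeR, 6 at an unadjusted p under 0.05 and 3 by DESeq2 (median -0.19).

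The other control-diet times, which used different mice, show how far the ZT12 differences extend around the day. *Nr3c1* itself was lower by a like amount at each time, with log2 fold changes of -2.01, -2.01, -2.06, -1.82 and -1.89 at ZT0, ZT4, ZT8, ZT16 and ZT20. The same test called 63 genes at ZT0 (0.536%), 23 at ZT4 (0.195%), 166 at ZT8 (1.43%), 232 at ZT16 (1.98%) and 50 at ZT20 (0.42%), with 3 or 4 livers in a group. Of the 238 genes called at ZT12, 90 were also called in the same direction at ZT16 (37.8% of the ZT12 genes and 38.8% of those at ZT16). The count was 50 at ZT8 (21% and 30.1%), 25 at ZT20 (10.5% and 50%), 17 at ZT0 (7.14% and 27%) and 11 at ZT4 (4.62% and 47.8%). Of the 238, 123 were called in the same direction at none of the other times and 3 at all 5. At ZT0 1 was called in the opposite direction.

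By direction alone, whether or not called, 228 of 237 measured ZT12 genes (96.2%) had the same sign at ZT16, where 61.7% of all tested genes had the same sign as at ZT12. The share was 94.4% at ZT8 (all genes 62.5%), 92% at ZT20 (60%), 90.6% at ZT4 (58.5%) and 75.9% at ZT0 (55.4%). Among the genes called lower at ZT12 the median log2 fold change was -0.15 at ZT0, -0.23 at ZT4, -0.29 at ZT8, -0.49 at ZT16 and -0.44 at ZT20. For those called higher the medians were 0.55, 0.595, 0.44, 0.75 and 0.65 at the same times. The genes were chosen for their size at ZT12, so smaller values elsewhere are no test of a difference.

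Differences in the genotype effect were tested with an interaction term. Against ZT8, 4 h earlier, 18 of 11980 genes (0.15%) differed, 12 with a more negative and 6 with a more positive effect at ZT12, and 17 of the 18 were called at ZT12. *St3gal5* had the smallest p, with effects of -1.93 at ZT12 and -0.19 at ZT8 (difference -1.73, SE 0.14, edgeR adjusted p = 2.51e-05). Scaled over all 42 control-diet livers, its level was 56.1 ± 3.25 CPM (SD, n = 4) in WT livers at ZT8 and 182 ± 19.9 CPM (SD, n = 4) at ZT12, and 49.0 ± 5.82 and 47.8 ± 5.99 CPM (SD, n = 4) in GR LKO livers. The level was high at ZT12 in WT livers and stayed near its ZT8 level in GR LKO livers. *Zbtb16* went from 4.64 ± 1.83 CPM (SD, n = 4) at ZT8 to 53.8 ± 10.9 CPM (SD, n = 4) at ZT12 in WT livers, and was 2.65 ± 0.836 and 3.66 ± 1.01 CPM (SD, n = 4) in GR LKO livers (difference -3.05, edgeR adjusted p = 0.00276). *Cdip1* went from 68.2 ± 3.03 to 134 ± 6.63 CPM (SD, n = 4) in WT livers, against 55.4 ± 1.75 and 56.5 ± 3.20 CPM (SD, n = 4) in GR LKO livers (difference -0.95, edgeR adjusted p = 2.51e-05).

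*Cldn2* moved the other way: WT livers fell from 82.4 ± 3.89 CPM (SD, n = 4) at ZT8 to 39.2 ± 3.42 CPM (SD, n = 4) at ZT12, while GR LKO livers were at 86.3 ± 12.4 and 79.0 ± 2.65 CPM (SD, n = 4) (difference 0.94, edgeR adjusted p = 0.00276). Other genes with a more negative effect at ZT12 were *Tcim* (-2.46), *Il1r1* (-1.85), *Fbxo31* (-0.996), *Nucks1* (-0.78) and *Sdc4* (-0.62), a heparan sulfate proteoglycan. *Ppp1r9a* (2.16), *Tlr12* (1.37) and *Paqr9* (0.84) had a more positive one, as did *Zfpm1* (1.02), a GATA cofactor and the 1 gene not called at ZT12. DESeq2 called 78 genes for this difference, and edgeR called 11 without WT replicate 1 or 4 or GR LKO replicate 2 or 4 of the ZT8 groups. By contrast *Mfsd2a* was lower at both times (-3.33 at ZT8), and *Slc22a26* was higher at each of the 6 times, with log2 fold changes of 4.95, 4.73, 4.64, 5.01, 4.15 and 4.22 from ZT0 to ZT20. At ZT20 the adjusted p of *Slc22a26* was 0.0583 by edgeR.

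**Figure D4:**
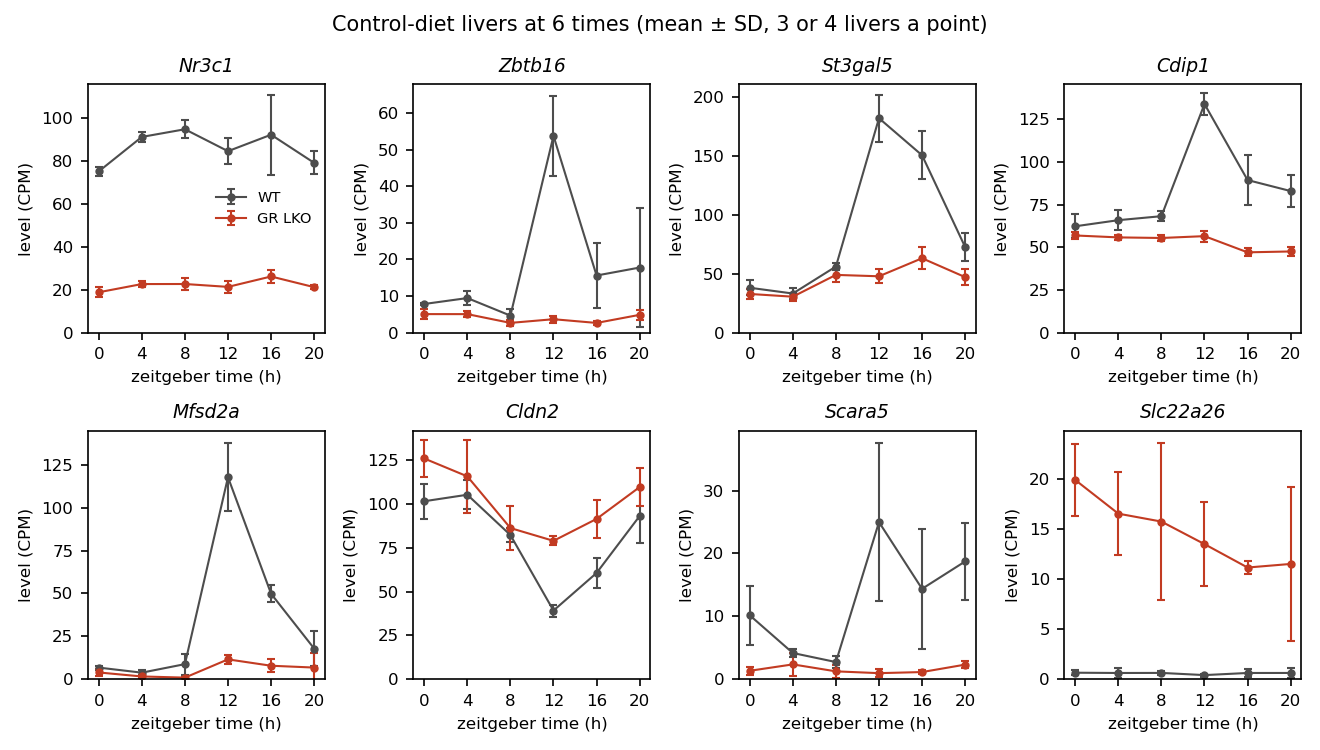
Levels in CPM (vertical axis, from 0) of 8 genes at 6 zeitgeber times in hours in control-diet livers, scaled over the 42 libraries. Grey lines are WT and red lines GR LKO means with SD bars over 3 or 4 livers. WT levels of *Zbtb16*, *St3gal5*, *Cdip1* and *Mfsd2a* are highest at ZT12, at 53.8 ± 10.9, 182 ± 19.9, 134 ± 6.63 and 118 ± 19.99 CPM.

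Against ZT16, 4 h after lights off, 0 of 12122 genes (0%) differed by edgeR, 741 had an unadjusted p under 0.05 and DESeq2 called 20, while 1 was called by edgeR without the ZT12 WT replicate 1. This does not show that the effects were equal. Among the smallest p were *Tmc7*, with effects of -1.93 at ZT12 and -0.19 at ZT16 (edgeR adjusted p = 0.198), and *Gadd45g*, a stress response gene, with effects of -3.07 and 2.17 (edgeR adjusted p = 0.365). *Gadd45g* was not called at ZT12 (edgeR adjusted p = 0.101), where it was at 6.44, 103, 83.2 and 79.9 CPM in the WT livers and 1.89, 4.94, 12.9 and 13.1 CPM in the GR LKO livers. WT replicate 1 lay within the GR LKO range.

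Under caloric restriction the same genotypes at ZT12 gave 1795 called genes of 11759 (15.3%) with 3 livers in a group. Of the 238 genes called on the control diet 184 were called there too in the same direction, 77.3% of the control-diet genes and 10.3% of those under restriction. Of 231 measured 226 (97.8%) had the same sign, against 66.7% of all genes tested. The median log2 fold change of the higher genes was 1.14 there, and of the lower genes -1.14. The diets' effects differed by the interaction term in 123 of 12225 genes (1.01%), of which 24 were called on the control diet. Control-diet and restricted libraries carry numbers of different series, and the part of library series in these differences was not tested. *Serpina3k* fell with log2 fold changes of -1.09 on the control diet and -3.74 under restriction (edgeR adjusted p = 0.00287 for the difference). *Klhdc7a* was higher by 0.94 and 2.86 (edgeR adjusted p = 0.00671), and *Serpina6* by 0.68 and 2.12 (edgeR adjusted p = 0.00671). *Tango2*, *Nucks1*, *Plin5*, *Ciart* and *Klf9* were also lower by more under restriction, with differences of 1.117, 0.91, 1.39, 1.01 and 0.72.

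The cell cycle inhibitor *Cdkn1a* was at -0.060 on the control diet and -3.80 under restriction on the log2 scale (edgeR adjusted p = 0.00303 for the difference). *Mup18* had opposite signs on the diets, at 1.25 and -1.04 (edgeR adjusted p = 0.03), and so did *Fmo2*, at 0.69 and -0.64 (edgeR adjusted p = 0.0268). Neither was called under restriction alone (edgeR adjusted p = 0.0665 and 0.0793). DESeq2 called 473 genes for the difference between diets. Without a library of the restricted groups the count was 59 (WT replicate 2), 76 (WT replicate 3), 64, 71 and 49 (GR LKO replicates 1, 2 and 3). Without a library of the control-diet groups it was 74 (WT replicate 1), 50 (WT replicate 3), 60, 72 and 60 (GR LKO replicates 1, 2 and 4).

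Since GR binds DNA directly, the promoters of the called genes were searched for its motif. RefSeq promoters (GRCm38.p6, 250 bases before to 50 after each gene start) matched 70 of the genes called higher (105 promoters) and 111 of those called lower (145 promoters). The spaced core ACANNNTGT, which is its own reverse complement, was in 13 of 145 promoters of lower genes (8.97%) and in 5 of 105 of higher genes (4.76%), against 4.28% of the promoters of tested genes and 6.85% of all 32851 promoters. Of the 13, 2 are starts of the same gene that lie 1 base apart and hold the same match. The shorter motif AGAACA, searched on both strands, was in 14.5% of promoters of lower genes and 24.8% of those of higher genes, against 12.8% for tested genes and 19% of all. A match is a description and not a binding site, and GR also binds far from promoters. Below are 3 promoters with the core from lower genes described above, and 1 from a higher gene, *Cyp2c38*. It was the 1 promoter of a called gene in which AGAACA overlapped the core. Capitals mark ACANNNTGT. The strands and positions are chr3:81975679-81975978 on the minus strand for *Tdo2*, chr17:85028097-85028396 on the plus strand for *Slc3a1*, chr12:104406458-104406757 on the plus strand for *Serpina3n*, and chr19:39463026-39463325 on the minus strand for *Cyp2c38*.
Tdo2: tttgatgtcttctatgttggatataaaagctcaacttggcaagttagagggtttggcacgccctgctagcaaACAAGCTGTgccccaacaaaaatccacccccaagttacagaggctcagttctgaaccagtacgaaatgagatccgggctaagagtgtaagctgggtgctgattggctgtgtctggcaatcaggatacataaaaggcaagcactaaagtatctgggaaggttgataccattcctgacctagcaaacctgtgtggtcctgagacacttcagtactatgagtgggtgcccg
Slc3a1: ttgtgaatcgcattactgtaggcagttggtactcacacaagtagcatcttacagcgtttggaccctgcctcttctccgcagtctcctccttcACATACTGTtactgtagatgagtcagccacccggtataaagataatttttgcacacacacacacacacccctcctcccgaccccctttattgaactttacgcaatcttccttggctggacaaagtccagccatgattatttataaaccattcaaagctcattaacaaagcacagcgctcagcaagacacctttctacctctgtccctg
Serpina3n: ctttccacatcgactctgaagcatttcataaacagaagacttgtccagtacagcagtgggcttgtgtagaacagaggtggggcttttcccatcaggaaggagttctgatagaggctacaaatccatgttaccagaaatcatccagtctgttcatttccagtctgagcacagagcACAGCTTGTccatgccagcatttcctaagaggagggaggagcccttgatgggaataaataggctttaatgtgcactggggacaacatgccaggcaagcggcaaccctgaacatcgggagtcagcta
Cyp2c38: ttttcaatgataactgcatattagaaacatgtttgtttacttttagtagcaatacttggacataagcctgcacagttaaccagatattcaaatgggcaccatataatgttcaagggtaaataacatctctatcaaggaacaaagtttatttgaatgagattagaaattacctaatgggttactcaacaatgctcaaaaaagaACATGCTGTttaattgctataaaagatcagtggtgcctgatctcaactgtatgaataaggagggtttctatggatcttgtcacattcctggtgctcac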

How the data were processed

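The analysis starts from the estimated counts per gene that the authors deposited. Their processing notes name FastQC, MultiQC, Salmon with mm10 and DESeq2. Counts were rounded to whole numbers. The table held 27654 genes, of which 27244 matched a symbol; the 410 others took 0.114% of the counts. Genes were filtered with edgeR's filterByExpr (minimum count 10), scaled with TMM and tested with quasi-likelihood F tests in edgeR, a Benjamini-Hochberg adjusted p under 0.05 being a call (R 4.3.3, edgeR 4.0.16, limma 3.58.1, DESeq2 1.42.0). Differences in effect between times or diets used an interaction term.

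Genes were named if they were *Nr3c1*, were among the 15 largest changes each way with a mean of at least 5 CPM and no overlap, among the 10 smallest p each way or per interaction, or members of a list; any other gene is said to be chosen after its values were seen. The 44 pathway and 10 marker lists, and their members, were chosen with earlier results of these data known. Alternatives tried were DESeq2, RLE factors, library size alone, no filter, at least 1 CPM, a replicate block, a fit of all control-diet libraries and leaving out each library. The code was tested on simulated data.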

Additional observations from a re-analysis of the deposited data

Results flagged for a closer look

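In 292 groups of 4 values examined, 25 held 1 value far from the other 3; chance alone flags about 1 in 20 groups. Among WT livers, replicate 4 was the highest for *Abcd2* (13.085 CPM, next 5.17), *Cdip1* (139.1, next 127), *Eif4ebp3* (129.38, next 48.2), *Saa1* (133.47, next 28.6) and *Scara5* (42.518, next 18.5), and the lowest for *Mup20* (7568.7, next 11623). WT replicate 1 was the highest for *Cfd* (0.2734, next 0), *Cyp2a22* (1.1149, next 0.372), ENSMUSG00000073738 (0.18227, next 0) and *Paqr9* (166.72, next 137), and WT replicate 2 for *Hc* (1066.1, next 915). The summed neutrophil markers were lowest in WT replicate 3 (0.3119 CPM, next 1.144).

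Among GR LKO livers, replicate 3 was the highest for *Cfd* (33.977 CPM, next 6.62), *Inhbe* (101.99, next 80.4), *Mogat1* (3.5428, next 1.26), *Sh3bgrl2* (86.521, next 77.5) and the summed exocrine pancreas markers (1 CPM, next 0.457). Replicate 1 was the highest for *Klf15* (84.821, next 72.6), *Noct* (209.55, next 150.5), *Per1* (47.087, next 30.2) and *Vnn1* (71.348, next 50.6), and the lowest for *Gldc* (45.404, next 63.5). Replicate 4 was the highest for *Fmo2* (19.598, next 15.6) and *Tlr12* (12.49, next 11.5), and the lowest for *Cyp4a14* (76.367, next 156).

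The genotype effect at ZT12 on the control diet minus that at ZT8 (log2) was -0.945609 for *Cdip1*, 0.944682 for *Cldn2*, -0.995598 for *Fbxo31*, -1.84605 for *Il1r1*, -0.781779 for *Nucks1*, 0.841488 for *Paqr9*, 2.15524 for *Ppp1r9a*, -0.686214 for *Saa4*, -0.623582 for *Sdc4*, -1.73404 for *St3gal5*, -2.45736 for *Tcim*, 1.37134 for *Tlr12* and -3.04877 for *Zbtb16*. The effect on the control diet minus that under caloric restriction was -1.72699 for *Car3*, 0.61294 for *Cdip1*, 1.01229 for *Ciart*, 0.802617 for *Fbxo31*, 1.3175 for *Fmo2*, 0.717941 for *Klf9*, -1.93764 for *Klhdc7a*, 2.27503 for *Mup18*, 4.37801 for *Mup7*, 0.912262 for *Nucks1*, 8.24668 for *Nudt16l1* (a fitted value, since all control-diet WT livers at ZT12 were at 0), 1.38918 for *Plin5*, 2.63826 for *Serpina3k*, -1.4507 for *Serpina6*, 1.11736 for *Tango2* and 1.58251 for *Tmc7*.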

How the results depend on the processing

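With the settings used for the report the GR LKO livers gave 238 called genes, 93 of them higher and 145 lower. DESeq2 called 564 (247 higher, 317 lower), RLE factors 241, library size alone 288 (186 higher, 102 lower), no filter 223, at least 1 CPM 246, and a fit of all 42 control-diet libraries 537 (238 higher, 299 lower). A block for replicate number gave 101 (41 higher, 60 lower). Correlations of residuals between livers of the same number were -0.0174, 0.0186, -0.00379 and 0.033. Between livers of different numbers they ran from -0.108 to 0.0909, so these values show no pairing across all genes. A pairing that acts on part of the genes was not tested. Leaving out 1 library gave 137 to 199 called, 52 to 87 higher and 85 to 122 lower. For the difference from ZT16 edgeR called 0 (0 to 1 with 1 library left out) and DESeq2 20. For that from ZT8 edgeR called 18 (11 to 21) and DESeq2 78. For that between diets edgeR called 123 (49 to 148), DESeq2 473 and the replicate block 46. Of 108 called genes with values, 60 were called in every alternative and 48 lost the call in at least 1. In the fit of all control-diet libraries the call was lost for *Aadat*, *Fmo2*, *Gnmt*, *Hsph1*, *Klf15*, *Slc39a4* and *Vnn1*. The sign changed for genes near 0: *Igf1* was at -0.0561 and moved to 0.0369608 with library size alone and 0.0461071 without WT replicate 4 (range with 1 library left out -0.110252 to 0.0461071). *Per2* was at 0.0206 and moved to -0.0149418 without WT replicate 1, -0.0115628 without WT replicate 3 and -0.023933 without GR LKO replicate 4 (range -0.023933 to 0.0990633). The cause was not tested.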

Other observations

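*Nudt16l1* was at 0 counts in all 4 WT livers at ZT12 and at 1.96, 4.83, 4.99 and 2.03 CPM in the GR LKO livers, at least 14.4-fold higher than a floor of 3 counts per library. No other control-diet group was at 0 in all its livers, though the lowest liver was at 0 in WT at ZT20 and in GR LKO at ZT0. At the other times the WT means were 2.79 ± 1.123 (SD, n = 3) at ZT0, 3.87 ± 1.05 (SD, n = 3) at ZT4, 4.54 ± 2.88 (SD, n = 4) at ZT8, 4.82 ± 1.74 (SD, n = 4) at ZT16 and 2.50 ± 2.07 CPM (SD, n = 4) at ZT20. The GR LKO means were 2.74 ± 2.54 (SD, n = 3), 6.995 ± 0.790 (SD, n = 3), 6.03 ± 2.47 (SD, n = 4), 4.63 ± 2.28 (SD, n = 3) and 4.45 ± 2.58 CPM (SD, n = 3) at the same times, and none of these differences was called (edgeR adjusted p from 0.286 to 0.988). *Fam189a1*, chosen after its values were seen, was at 0, 0, 0 and 0 CPM in the WT livers and 1.14, 0.765, 1.36 and 0.848 CPM in the GR LKO livers, at least 4.29-fold different against the same floor. *Saa1*, an acute phase gene, was at 23.9, 25.3, 28.6 and 133 CPM in the WT livers and 11.7, 16.7, 17.8 and 16.5 CPM in the GR LKO livers (edgeR adjusted p = 0.203), with WT replicate 4 the highest.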
